A study of Homo sapiens with 6 samples.

Results

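Regulators of mitochondrial biogenesis, 10 nuclear genes that govern how much respiratory machinery and mitochondrial RNA a cell makes, were followed in renal carcinoma cells adapted to copper. They were chosen by name, as rows of the deposited gene count table whose symbol is PPARGC1A, PPARGC1B, PPRC1, NRF1, GABPA, ESRRA, TFAM, TFB1M, TFB2M or POLRMT. All 10 were in the table of 25987 named genes, and 9 had enough counts to be tested. The exception was PPARGC1A. All libraries came from 786-O, a long-used human line of clear cell renal carcinoma. It has no working VHL protein, so hypoxia-inducible factor (HIF) stays active in it, and the labels list its genotype as wild type. Both groups were grown in DMEM/F12 with 10% serum. The 3 copper samples were adapted to chronic copper, given as CuSO4 that had first been bound to serum proteins overnight in the cold. The series text states 30 uM, whereas the treatment labels are 30 uM for copper replicate 1, 31 uM for replicate 2 and 32 uM for replicate 3. The 3 were treated as 1 group. The 3 control samples received serum handled alike without copper. The duration of the adaptation is not given in the sources used here, nor is it stated whether the 3 samples of a group came from separately adapted cultures, so the p-values measure the spread between these samples, which may be technical.

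The genes form a cascade. The PGC-1 family of coactivators (PPARGC1A, PPARGC1B and PPRC1) does not bind DNA but is recruited by transcription factors, among them nuclear respiratory factor 1 (NRF1), GABPA (the DNA-binding subunit of GABP) and the estrogen-related receptor ESRRA. These factors act on nuclear genes for the respiratory chain and on the genes for the proteins that transcribe mitochondrial DNA, where the polymerase POLRMT starts RNA synthesis together with TFAM and TFB2M. In some VHL-deficient renal carcinoma cells, HIF activity is reported to hold down PGC-1 coactivators, in part through the repressor BHLHE40 and the MYC antagonist MXI1. Whether each of these routes works in 786-O was not tested here.

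Library totals ran from 16301772 to 18189469 counts in copper and from 19219090 to 25079913 in control. Libraries of 1 group differed by more than sampling noise, with a chi-square of at least 5.40 per degree of freedom. Replicate 3 stood apart in both groups and most in copper: its chi-square against the other copper libraries was 62.6 and 66.0 per degree of freedom, against 5.84 between copper replicates 1 and 2. The renal markers PAX8 (123 to 147 CPM, counts scaled to a common library size) and EPAS1 (308 to 441 CPM) were present in every library, as were the other 7 renal-line markers, whereas the blood gene HBB was at 0 in all 6 and the blood marker PTPRC at most at 0.224 CPM. Summed over 8 markers of blood, endothelium, fibroblasts and other epithelium, the level was 5.73 to 7.23 CPM in copper and 6.60 to 7.75 CPM in control. Most of it was the fibroblast marker PDGFRB, at 3.54 to 6.67 CPM, which overlapped the lowest renal-line marker, PAX2 (5.63 to 9.01 CPM). The epithelial marker EPCAM was at 0.838 to 1.71 CPM. These are bulk libraries, in which fewer cells that make an RNA and less RNA per cell cannot be told apart.

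Several of these genes carry sites for the very factors studied, which is why short stretches of their promoters are shown before the values. RefSeq promoter windows (GRCh38.p14, 250 bases before to 50 bases from the annotated start on) were matched for 9 of the 10 genes, PPARGC1A with a pair of starts. No window was available for the NRF1 gene, so its promoter was not searched. The NRF1 site was searched on both strands in a full form, GCGCA and GCGC with any 1 base between them, and as its shorter form GCATGCGC, which lies within the full form when that base is T. An NRF1 match was found in 5 of the 9 genes, TFAM, TFB1M, TFB2M, POLRMT and ESRRA, against 7.24% of all 35116 promoter windows of the same length. The ETS core CGGAAG, which GABPA binds, was found in 4 genes, TFB1M, TFB2M, POLRMT and GABPA itself, against 19.5% of windows. The single-receptor site AAGGTCA of estrogen-related receptors was found in 0 of the 9, against 3.92% of windows. The 5 genes with an NRF1 match have windows of 65.0% to 75.0% GC, and the shares are over windows of any GC content. A match describes letters in the window and shows no binding.

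The 30-base stretches around one NRF1 match in each gene follow, 5′ to 3′ on the gene's own strand, with the match in capitals. They lie at chr10:58385337-58385366 (TFAM, plus strand), chr6:155314597-155314626 (TFB1M, minus), chr1:246566258-246566287 (TFB2M, minus), chr19:633539-633568 (POLRMT, minus) and chr11:64305421-64305450 (ESRRA, plus).
TFAM: acgctctcccGCGCCTGCGCcaattccgcc
TFB1M: gcaggacttaGCGCATGCGCtctcagcacg
TFB2M: ctccgctgttcGCATGCGCaggctctagtg
POLRMT: ggcgcggGCGCATGCGCAGGCGCgggccgg
ESRRA: tcgtccgggcGCGCAGGCGCcgcccgcccc
The POLRMT run holds overlapping matches, 24 to 9 bases before the start, and that of TFB2M holds the short form only, 15 to 8 bases before it. The TFAM match reads as the full site on the opposite strand.

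The stretches around an ETS core follow in the same way, at chr6:155314552-155314581 (TFB1M), chr1:246566300-246566329 (TFB2M), chr19:633613-633642 (POLRMT) and chr21:25734894-25734923 (GABPA, plus strand).
TFB1M: ccgcggtcatcgCTTCCGgtgggataggtc
TFB2M: gagccgaggCGGAAGCGGAAGtgagggaga
POLRMT: cctgggagtctaCTTCCGgctggggtttcc
GABPA: acctccgctctaCTTCCGgccctggctccg
TFB2M holds the core as a direct repeat, and TFB1M, TFB2M and POLRMT are the 3 genes with both kinds of match.

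None of the 9 tested regulators passed the test between copper and control. edgeR's quasi-likelihood test, with p-values adjusted by the Benjamini-Hochberg method over all 12944 genes tested and called under 0.05, called 0 of the 9, where it called 0 genes in all (0.00%). At an unadjusted p under 0.05 it was also 0 of the 9, against 3.52% of all genes. DESeq2 called 0 of the 9, against 0.209% of all genes, and limma-voom 0 of the 9, against 0.00%. With the replicate number as a block, edgeR called 0 of the 9, against 0.170% of all genes, and the adjusted p-values of the 9 ran from 0.570 to 0.969. Without the block each was 1.00. The log2 fold changes, copper against control, ran from -0.33 to 0.25 with a median of 0.02, beside a median of 0.0052 for all genes tested. A p above the threshold does not show that the levels were equal, so the 95% interval of each difference is given.

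**Figure D1:**
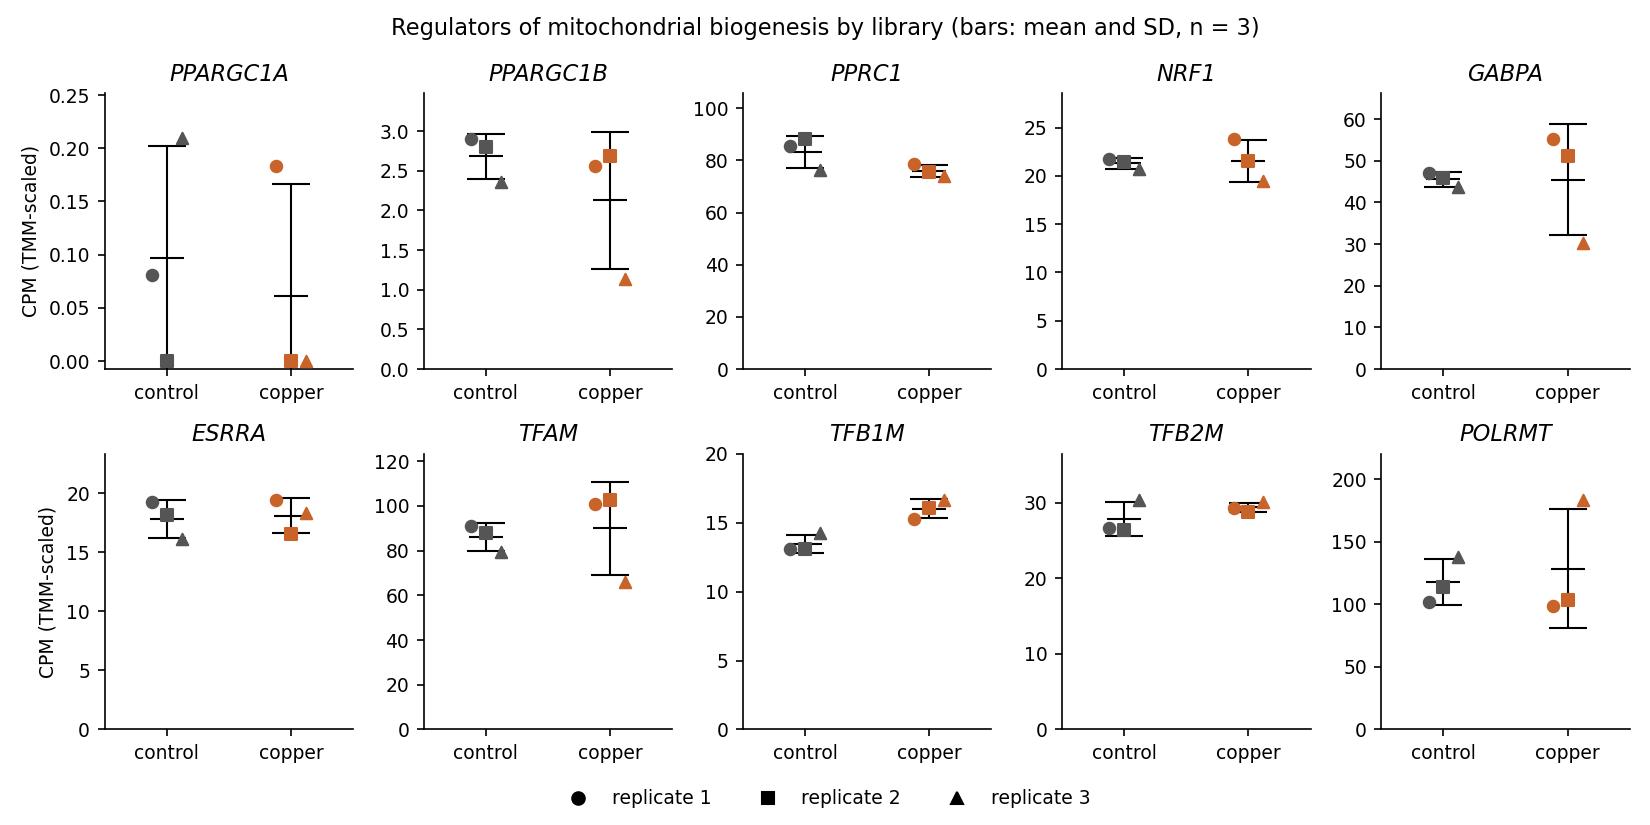
CPM (vertical axes, each from 0 or just under it) of the 10 genes in the 3 control and 3 copper libraries, with replicate numbers as symbols and bars for mean and SD (n = 3). TFB1M is the gene whose groups do not overlap, and copper replicate 3 lies far from the other libraries in PPARGC1B, GABPA, TFAM and POLRMT.

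Among the coactivators, PPARGC1A (PGC-1α; Entrez 10891), the founding and most inducible member, was at the limit of detection as counted here. It had 3, 0 and 0 counts in copper replicates 1 to 3 and 2, 0 and 4 in control. A count of 0 still allows a level of up to 3 counts, which is 0.121 to 0.183 CPM in these libraries (counting error only). All but 1 of its values lay at or under 3 counts, and no fold change is given. The table places it on chromosome 4 at 23882681 to 23890047, a span of 7367 bases. The RefSeq gene spans 680885 bases, from 23792021 to 24472905, so both of its ends lie outside the deposited span. Which exons were counted is not given in the sources used here. If only those within the span were, the low counts do not show that RNA of this gene was nearly absent.

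PPARGC1B (PGC-1β; Entrez 133522; chromosome 5, 149771940 to 149855022) was low but counted in every library. It stood at 2.56, 2.69 and 1.13 CPM in copper and at 2.90, 2.79 and 2.36 CPM in control. Copper replicate 3, with 21 counts, was the lowest, and the groups overlapped. Its log2 fold change was -0.33 (SE 0.33, 95% interval -1.10 to 0.42), the widest interval of the 9. Copper was the lower library under each replicate number, by 0.17, 0.05 and 0.99 on the log2 scale, so most of the shift lay in replicate 3.

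PPRC1 (Entrez 23082; chromosome 10, 102132994 to 102150333), a coactivator known to respond to serum and growth signals, had the most counts of the family. For PPARGC1A this compares counts over the short span given above, so its place in the family is not settled. Its level was 78.5, 75.5 and 74.1 CPM in copper and 85.4, 88.0 and 76.4 CPM in control. The groups overlapped only through control replicate 3, which lay between copper replicates 1 and 2. The log2 fold change was -0.13 (SE 0.09, 95% interval -0.35 to 0.09). Of the 9 genes, PPARGC1B and PPRC1 were lower in copper under all 3 replicate numbers, as were 17.0% of all genes tested.

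The 3 DNA-binding factors had log2 fold changes between -0.0035 and 0.02. NRF1 (Entrez 4899; chromosome 7, 129630078 to 129757082) stood at 23.8, 21.5 and 19.4 CPM in copper and at 21.8, 21.4 and 20.7 CPM in control, a log2 fold change of 0.02 (SE 0.11, 95% interval -0.24 to 0.28). Copper replicates 1 and 3 were the highest and the lowest of the 6. ESRRA (Entrez 2101; chromosome 11, 64306227 to 64316740), an orphan nuclear receptor through which PGC-1 coactivators act, was at 19.4, 16.5 and 18.3 CPM in copper and at 19.3, 18.1 and 16.1 CPM in control. This amounts to a log2 fold change of 0.02 as well (SE 0.12, 95% interval -0.26 to 0.30), and the 2 groups covered nearly the same range.

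GABPA (Entrez 2551; chromosome 21, 25734972 to 25772460) had a fold change near 0 made of opposite parts. It was at 55.1 and 51.0 CPM in copper replicates 1 and 2, above all control libraries (47.1, 45.7 and 43.7 CPM), and at 30.2 CPM in copper replicate 3, below them all. The log2 fold change was -0.0035 (SE 0.21, 95% interval -0.49 to 0.49), and its sign changed with upper-quartile scaling (0.0119) and total-count scaling (0.0218). Exons of GABPA overlap those of its head-to-head neighbour ATP5PF, on the other strand, over 413 bases in GENCODE 29, and those of ESRRA overlap TRMT112 over 284 bases. Whether the counting used strand is not given in the sources used here, so some reads of these pairs may be shared.

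Of the proteins that work on mitochondrial DNA, TFAM (Entrez 7019; chromosome 10, 58385143 to 58399230), which both packs the genome and helps start its transcription, showed the same pattern as GABPA. It stood at 101, 103 and 66.1 CPM in copper and at 91.2, 87.8 and 79.4 CPM in control, so that copper replicates 1 and 2 lay above every control library and copper replicate 3 below every one. The log2 fold change was 0.06 (SE 0.17, 95% interval -0.34 to 0.47). POLRMT (Entrez 5442; chromosome 19, 617221 to 633537), the mitochondrial RNA polymerase, was high where these were low. It was at 98.8, 103 and 184 CPM in copper and at 102, 114 and 138 CPM in control, with replicate 3 the highest library of each group. Its log2 fold change was 0.13 (SE 0.25, 95% interval -0.45 to 0.70). GENCODE 29 names 2 pseudogenes of TFAM, 2 of ESRRA and 1 of POLRMT, with which reads could be shared.

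TFB1M (Entrez 51106; chromosome 6, 155229871 to 155314484), a methyltransferase of the small mitochondrial ribosomal RNA, was the regulator nearest to a call. It was at 15.3, 16.1 and 16.7 CPM in copper and at 13.1, 13.1 and 14.3 CPM in control. Every copper library lay above every control library, which held for 1 of the 9 genes in this direction and for 5.45% of all genes tested. No regulator was separated in the other direction, as 5.35% of all genes were. The log2 fold change was 0.25 (SE 0.11, 95% interval -0.0031 to 0.51), with an unadjusted p of 0.0522 and an adjusted p of 1.00 by edgeR. With the replicate block the interval was 0.02 to 0.48, the unadjusted p 0.0342 and edgeR's adjusted p 0.570. TFB1M was thus 1 of the 9 at an unadjusted p under 0.05 in the blocked fit, against 8.41% of all genes. Under replicate numbers 1, 2 and 3 copper was higher by 0.23, 0.30 and 0.22, and TFB1M was the 1 regulator higher under all 3, as were 17.7% of all genes. Its exons overlap those of TIAM2, on the other strand, over 215 bases.

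TFB2M (Entrez 64216; chromosome 1, 246540561 to 246566261), the paralogue that serves POLRMT as an initiation factor, was at 29.3, 28.8 and 30.1 CPM in copper and at 26.7, 26.4 and 30.4 CPM in control. The copper libraries were close together, and control replicate 3 was the highest of all 6. The log2 fold change was 0.08 (SE 0.10, 95% interval -0.15 to 0.31). It was 0.15 without control replicate 3, 0.04 without control replicate 2, 0.05 without control replicate 1 and 0.03 after the correction for transcript length and GC content described later.

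**Figure D2:**
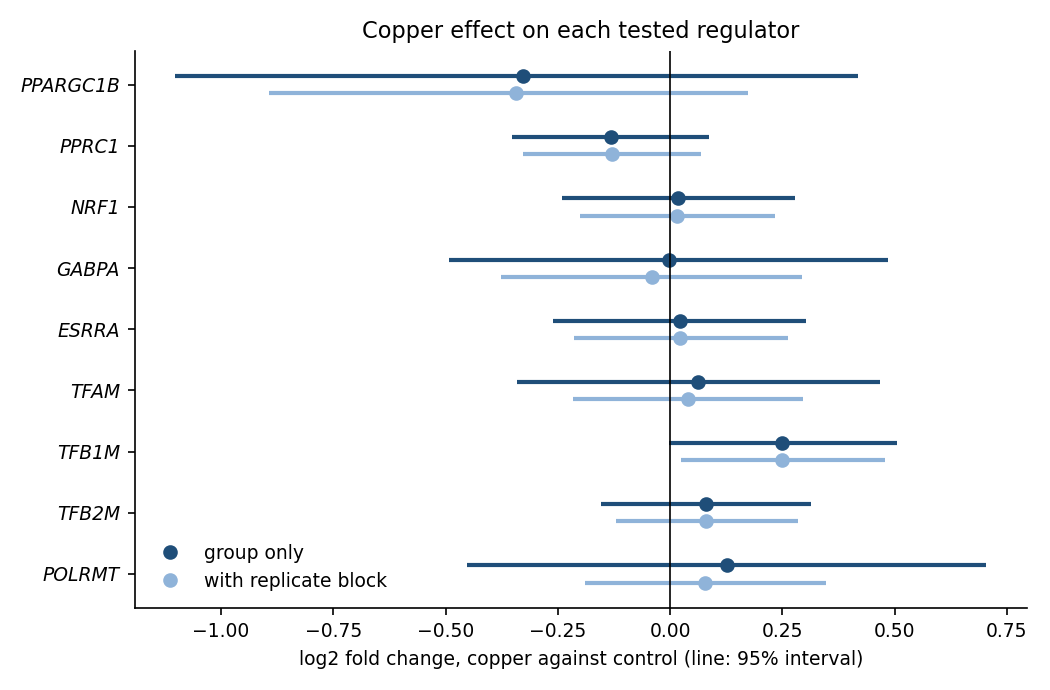
Log2 fold change of copper against control (horizontal axis) for the 9 tested regulators, with 95% intervals, from edgeR with group only (dark) and with the replicate block (light). All 9 dark intervals include 0, and the light interval of TFB1M, 0.02 to 0.48, does not.

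Levels between genes were compared per kilobase of the longest coding GENCODE 29 transcript. Which exons were counted is not given, so the order below holds for this length only. All exons of TFB1M cover 2736 bases, against 1424 in the transcript used, and those of ESRRA 3030 against 2283. The place of TFB1M relative to GABPA, ESRRA and NRF1 is therefore uncertain. In control, POLRMT was the most abundant at 30.7 ± 4.81 CPM per kb (SD, n = 3). TFAM followed at 15.9 ± 1.12, PPRC1 at 15.6 ± 1.15 and TFB2M at 15.1 ± 1.21 CPM per kb, and the ranges of these 3 overlapped. TFB1M was at 9.46 ± 0.475 and GABPA at 8.89 ± 0.334 CPM per kb, also with overlapping libraries. Below them came ESRRA at 7.81 ± 0.706 and NRF1 at 5.97 ± 0.152 CPM per kb, without overlap between neighbours in control. PPARGC1B stood far under the rest at 0.254 ± 0.0270 CPM per kb. Over all 6 libraries POLRMT lay at percentile 82.0 of the tested genes on this scale and PPARGC1B at percentile 3.06. In copper the order differed in TFB2M (15.9 ± 0.349 CPM per kb) coming before PPRC1 (14.3 ± 0.419 CPM per kb). TFAM was at 16.6 ± 3.82 and POLRMT at 33.5 ± 12.4 CPM per kb, with copper replicate 3 farthest from the mean in both.

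Copper replicate 3 was the highest or the lowest of the 6 libraries for 7 of the 9 regulators, and it was so for 67.0% of all genes tested. Against the mean of the other 5 libraries it was lower by 1.16 for PPARGC1B, 0.68 for GABPA and 0.48 for TFAM on the log2 scale, and higher by 0.73 for POLRMT and 0.22 for TFB1M. Its deviation moved with GC content across all genes, and the part of this trend in the results above was not tested beyond the correction that follows. Tested genes in the lowest quintile of GC content (30.2% to 41.0%) had a median of -0.31 in this library, and those in the highest quintile (58.1% to 74.5%) one of 0.35. In the other 5 libraries these medians lay between -0.15 and 0.12. GABPA (36.4% GC) and TFAM (38.4%) belong to the lowest quintile and POLRMT (66.3%) to the highest. Other regulators did not follow that order: ESRRA, with 63.2% GC, deviated by 0.04, and PPARGC1B, with 50.5%, lay in a quintile whose median was -0.02. TFB1M and TFB2M deviated by 0.22 and 0.09, where the median of their quintile was -0.18. PPRC1 deviated by -0.12, where that median was 0.17.

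**Figure D3:**
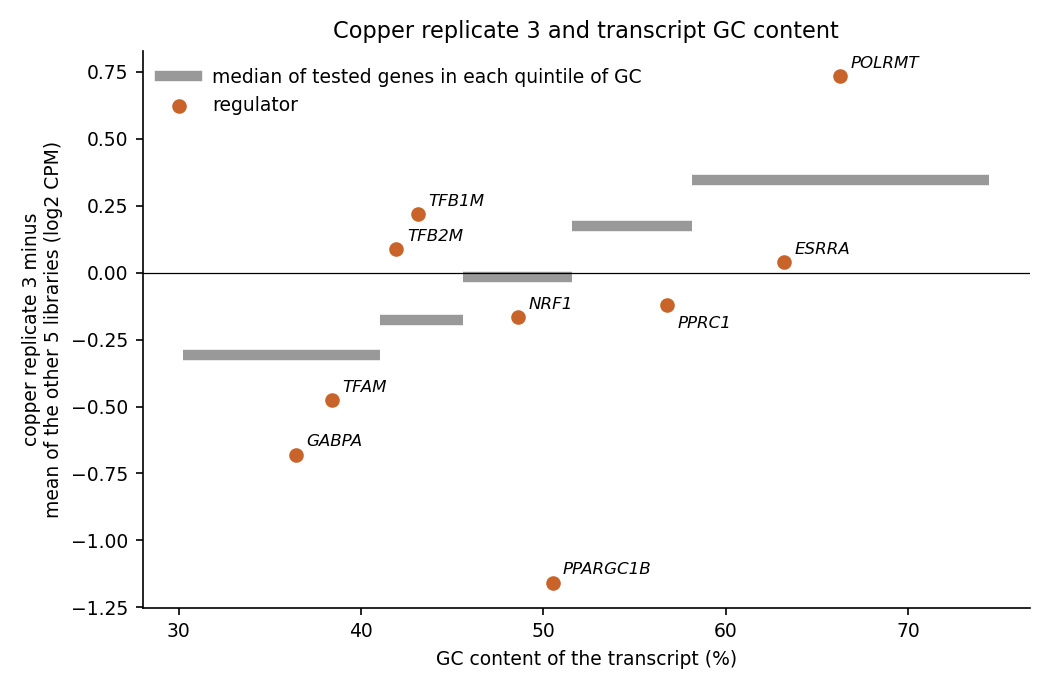
Deviation of copper replicate 3 from the mean of the other 5 libraries (vertical axis, log2 CPM) against GC content of the transcript (horizontal axis, %) for the 9 regulators (points), with the median of all tested genes in each quintile of GC content (grey bars). The bars rise from -0.31 to 0.35, GABPA and TFAM lie at the low end and POLRMT at the high end, and PPARGC1B lies at -1.16 in the middle.

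The dependence of counts on transcript length and GC was then taken out of every library, a step chosen after the data were seen. The replicate 3 difference became smaller in size for all regulators but TFB2M and PPRC1. For TFAM the difference between copper and control went from 0.15, 0.23 and -0.26 under replicate numbers 1, 2 and 3 to 0.13, 0.16 and 0.03. For POLRMT it went from -0.04, -0.14 and 0.41 to -0.0097, 0.04 and 0.22. For GABPA it went from 0.23, 0.16 and -0.53 to 0.20, 0.08 and -0.22, so its sign in replicate 3 still differed. For TFB2M the replicate 3 difference went from -0.02 to -0.03, against 0.09 and 0.04 in replicates 1 and 2 after correction. For ESRRA it turned from 0.19 to -0.10, for NRF1 it went from -0.09 to -0.08 and for PPRC1 from -0.04 to -0.05. Copper replicate 3 was still the highest or the lowest library for 7 of the 9 regulators, where the share of all genes was 55.0%. TFB1M kept its direction under each number, at 0.18, 0.21 and 0.15, and PPARGC1B remained lowest in replicate 3, at -0.15, -0.03 and -0.82. After the correction edgeR called 0 of the 9 without the block, against 0.00% of all genes, and 0 of the 9 with it, against 1.61%. Without the block the log2 fold changes were 0.11 for TFAM, 0.10 for POLRMT, 0.03 for GABPA and 0.18 for TFB1M. For TFB1M edgeR's unadjusted p was 0.115 in this fit and 0.0502 with the block, no longer under 0.05.

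**Figure D4:**
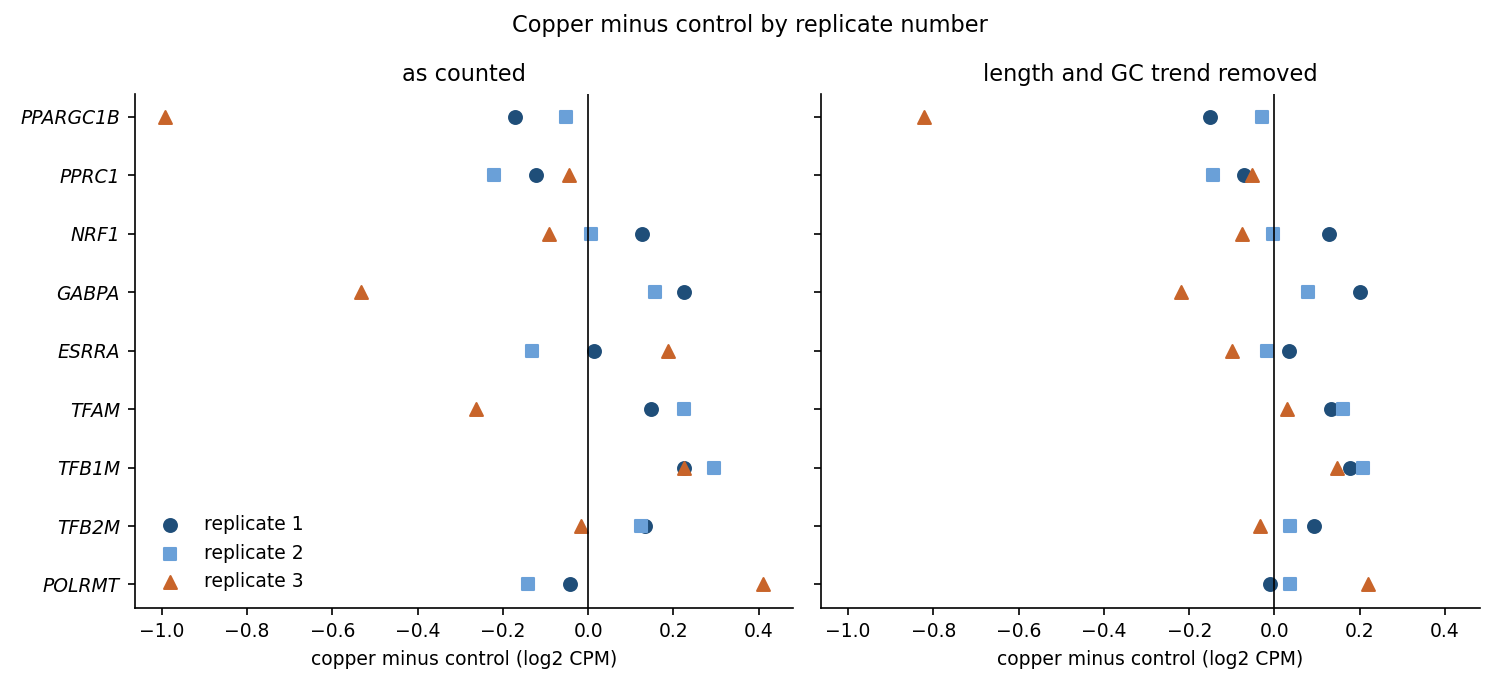
Copper minus control (horizontal axes, log2 CPM) for each of the 9 regulators under replicate numbers 1, 2 and 3, as counted (left) and after the length and GC correction (right). On the left, replicate 3 lies opposite to replicates 1 and 2 for 5 of the 9, by more for GABPA, TFAM and POLRMT than for NRF1 and TFB2M. On the right, all 3 values of TFAM and of TFB1M are above 0.

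The directions of GABPA and POLRMT rested on copper replicate 3, without which their log2 fold changes were 0.22 and -0.22. TFAM and PPARGC1B kept their direction without it, at 0.24 and -0.03. TFAM turned instead without copper replicate 1 or copper replicate 2 (-0.03 and -0.05). Without copper replicate 3 edgeR called 0 of the 9, against 0.115% of all genes, with adjusted p-values of at least 0.420. In replicates 1 and 2 alone, without the block, edgeR called 0 of the 9, against 0.856% of all genes. With the block in these 4 libraries, which leaves 1 residual degree of freedom per gene, it called 2 of the 9, against 7.03% of all genes tested there. TFAM was higher by 0.19 (SE 0.05, adjusted p 0.0239 by edgeR; 2.88% of genes were called higher). PPRC1 was lower by 0.17 (log2 fold change -0.17, SE 0.05, adjusted p 0.0480 by edgeR; 4.16% were called lower). For GABPA the log2 fold change was 0.19 and edgeR's adjusted p 0.0668. Without the block the adjusted p-values of TFAM and PPRC1 in the same 4 libraries were 0.214 and 0.272. Whether the copper effect differed between replicate 3 and the others was not tested.

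Other genes of the pathway were taken from 5 lists of 94 genes, of which 88 were tested. The 6 that were too low were ESRRB, ESRRG, PERM1, PRKAA2, MRM2 and MAOB, so ESRRA was the 1 estrogen-related receptor measured. edgeR called 0 of the 88 with or without the block. At an unadjusted p under 0.05 without the block there were 2, against 3.52% of all genes, and 5 with it, against 8.41%. The groups did not overlap for 2 listed genes higher in copper, PPARG and TFEB, and for 3 lower, POLG, HCFC1 and ATP5F1B, out of 88 each. Among all genes 5.45% were separated higher and 5.35% lower. For the counts above 0 given by list below, 6657 of all 12944 genes tested had a log2 fold change above 0.

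The machinery that copies and transcribes mitochondrial DNA (20 genes tested) had a median log2 fold change of 0.02, with 13 above 0. Its member with the smallest p was POLG, the catalytic subunit of the mitochondrial DNA polymerase. POLG stood at 86.0, 87.3 and 86.7 CPM in copper and at 97.2, 102 and 107 CPM in control, a log2 fold change of -0.23 (SE 0.09, unadjusted p 0.0276, adjusted p 1.00 by edgeR). The copper libraries were close together and all below control. TOP3A, a topoisomerase that parts replicated genomes, followed with -0.11.

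Binding partners and cofactors (13 tested) had a median of -0.08, with 4 above 0. PPARG, a nuclear receptor that recruits PGC-1 coactivators, was at 16.2, 17.4 and 18.7 CPM in copper and at 14.6, 14.8 and 13.0 CPM in control. Its log2 fold change was 0.30 (SE 0.12, unadjusted p 0.0342, adjusted p 1.00 by edgeR). HCFC1, a cofactor bound by PGC-1 proteins and by GABP, was at 143 to 158 CPM in copper and at 162 to 182 CPM in control. The log2 fold change was -0.19 (SE 0.09).

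Upstream controls of the coactivators (15 tested) had a median of -0.09, with 3 above 0. The members with the smallest p were TFEB, a lysosomal regulator that acts on PPARGC1A, with a log2 fold change of 0.28 (SE 0.15), and the deacetylase SIRT1 with -0.19 (SE 0.16). In the blocked fit of replicates 1 and 2 alone, 8 of 89 listed genes were called, against 7.03% of all genes, again with 1 residual degree of freedom per gene. The same 4 libraries without the block gave 0 listed genes, against 0.856% of all genes. This list held 4 of the 8, each lower in copper, where 4.16% of all genes were called lower: BHLHE40 (-0.28, adjusted p 0.000204), BHLHE41 (-0.21, 0.0377), MXI1 (-0.19, 0.0466) and MYC (-0.17, 0.0337), values and adjusted p-values by edgeR. BHLHE40 and BHLHE41 are hypoxia-inducible repressors. The other 4 were POLG (-0.20), HCFC1 (-0.15), the nucleotide reductase subunit RRM2B (0.22) and cytochrome c, CYCS (0.17). Over all 6 libraries the log2 fold change of BHLHE40 was -0.19 (SE 0.23), with 195, 216 and 334 CPM in copper and 246, 254 and 353 CPM in control. That of BHLHE41 was -0.19 (SE 0.22) and that of MXI1 -0.15 (SE 0.14), and none of these was called there. Replicate 3 went the other way for 3 of the 8. Over all 6 libraries MYC had a log2 fold change of -0.08 (0.07 in replicate 3), RRM2B one of 0.09 (-0.27 in replicate 3) and CYCS one of 0.11 (-0.05 in replicate 3).

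Genes for processing and stability of mitochondrial RNA (23 tested) had a median of 0.03, with 15 above 0. PTCD1, a leucine tRNA processing factor that shares exons with the readthrough gene ATP5MF-PTCD1 and whose counts are thus uncertain, had a log2 fold change of 0.29 (SE 0.19), and TRMT10C, a subunit of mitochondrial RNase P, one of 0.20 (SE 0.13). Textbook nuclear targets of the regulators (17 tested) had a median of -0.0049, with 8 above 0. COX4I1, a cytochrome c oxidase subunit, had a log2 fold change of 0.19 (SE 0.14) and UQCRH, a complex III subunit, one of 0.17 (SE 0.17). Their differences were larger in replicate 3 (0.43 and 0.35) than in replicate 1 (0.05 and 0.08) or replicate 2 (0.04 and 0.04). None of these 4 genes passed the test.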

How the data were processed

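Directional libraries were made from total RNA of 6 samples (labels' protocols). The deposited file is 1 table of unnormalized counts, whole numbers per gene and library, made by the authors, and the submitters' processing notes name STAR, FastQC, edgeR and GRCh38. Counting rules and use of strand are not given in the sources used here. Starts in the table count from 0, and 1 was added. The 5 genes that carry no symbol, with 0.000814% of counts, stayed out of totals and tests. In R 4.3.3, edgeR 4.0.16 kept genes by filterByExpr (minimum count 10, minimum total 15), scaled libraries by TMM and tested copper against control by robust quasi-likelihood, with a prior count of 2 for fold changes. SEs are the fold change, refitted with a negligible prior count, over the root of F. The 95% intervals are centred on that refitted value and use the moderated degrees of freedom. CPM are relative to TMM-scaled library size. Alternatives were other scalings and filters, DESeq2 1.42.0, limma 3.58.1 (voom), a prior count of 0.125, a replicate block, a batch term for replicate 3, replicates 1 and 2 alone and each library left out. Added after seeing the data were the length and GC correction (natural splines, 4 degrees of freedom each, lengths and GC from GENCODE 29 for 99.2% of tested genes), its blocked form and the block in replicates 1 and 2. Scripts were tested on simulated counts.

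Both groups carry replicate numbers 1 to 3. Deviations of same-numbered libraries from their group means correlated at 0.46, 0.40 and 0.65 across 12944 genes (which are not independent), all above the minimum of 0.1 set for pairing. With 3 libraries the deviations of a group cancel out, so a replicate 3 apart in both groups can raise all 3 correlations. Libraries of unlike number were not compared, so the values do not show that each number marks a pair. No label ties a number to a day or batch. Members, lists, motifs and tests were chosen with earlier results of these data known. The rule named all members, the 2 genes of smallest p in each list, and the 3 genes most correlated with the member of smallest p. The genes called in replicates 1 and 2, those separated between groups and those not tested were named after their values were seen. Mitochondrially encoded genes were not analysed here.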

Additional observations from a re-analysis of the deposited data

How the results depend on the processing

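No regulator was called in any alternative except the replicate block in replicates 1 and 2 alone, with 2 called (8 among the listed genes). The count of all genes called, 0, rose to 22 under the replicate block, 27 by DESeq2, 12 unfiltered, 35 with a batch term for replicate 3, 111 in replicates 1 and 2 alone, 209 with the replicate block and the length and GC correction, and 912 with the replicate block in replicates 1 and 2. Leaving out each library in turn, the number ranged from 0 to 15, the latter when copper replicate 3 was absent. The block changed no call of a regulator in all 6 libraries. Over all alternatives, 154 fold changes of the 9 regulators kept direction and call, 2 were called (TFAM and PPRC1) and 24 changed sign. GABPA was at 0.0119 with upper-quartile and 0.0218 with total-count scaling, 0.191 in replicates 1 and 2 alone (0.192 with the replicate block), and 0.0328 with the length and GC correction (0.0290 with the block). ESRRA was at -2.34e-05 with no filter, -0.0601 in replicates 1 and 2 alone (-0.0564 with the replicate block), and -0.0279 with the length and GC correction (-0.0263 with the block). NRF1 was at -0.0021 with no filter. POLRMT was at -0.0921 in replicates 1 and 2 alone (-0.0920 with the replicate block). With one replicate left out at a time (leave-one-out), the range was -0.167 to 0.220 for GABPA, -0.0474 to 0.0778 for ESRRA, -0.0583 to 0.0874 for NRF1, -0.0476 to 0.241 for TFAM and -0.221 to 0.282 for POLRMT. The highest values of GABPA, NRF1 and TFAM and the lowest of POLRMT were those without copper replicate 3. For these, the cause was not tested. No scaling moved the median of all genes beyond 0.033. Depth limits PPARGC1A, which was at or near the limit of a zero count over the short span deposited for it, and PPARGC1B, with 21 to 72 counts.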

Other observations

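TFB1M had the smallest p of the regulators, and the 3 tested genes whose log2 CPM ran most like it over the 6 libraries were PSMG4, a proteasome assembly chaperone, AKR1C1, an aldo-keto reductase, and TCTN1, a protein of the ciliary transition zone. Their Pearson correlations with TFB1M were 0.999, 0.992 and 0.988 over 6 libraries. They are given as a description with no test, since the libraries share 2 groups and replicate 3 stands apart. The 3 genes were also picked as the highest among all genes tested, and over so few libraries such a choice by itself yields high values. PSMG4 was at 18.3, 18.8 and 19.6 CPM in copper and at 15.9, 15.9 and 17.1 CPM in control. AKR1C1 was at 9.88, 14.1 and 18.9 CPM in copper and at 2.73, 3.53 and 6.81 CPM in control. AKR1C1 has near-identical paralogues, so its share of reads is uncertain. TCTN1 was at 28.2, 29.6 and 31.4 CPM in copper and at 24.7, 23.6 and 26.3 CPM in control.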
